A study of Homo sapiens with 20 samples.

Results

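The genes described here are 8 genes whose products define the eosinophil, out of 28051 named genes in the RNAseq files: PRG2, PRG3, EPX, RNASE2, RNASE3, CLC, IL5RA and CCR3. All 8 were found by symbol in each of the 12 RNAseq libraries, and 1 of 8286 ATACseq regions listed a member in its gene column. The genes were selected on the RNA difference between HK3-null and Cas9 control in these same libraries, so the comparison of genotypes is a description without a test, while the response to all-trans retinoic acid (ATRA) was tested. The cells were HL60, an established human acute myeloid leukemia line of promyelocytic character that matures toward neutrophil-like cells in ATRA. Cas9 control cells expressed the Cas9 nuclease, and HK3-null cells carried a CRISPR/Cas9 disruption of HK3, the gene of hexokinase 3. Each genotype received either 1 µM ATRA or 0.01% DMSO, the solvent, for 36 h. Each of the 4 groups had 3 RNAseq libraries and 2 ATACseq libraries. All HK3-null libraries carried 1 clone label and single clones were grown after selection, so a difference between genotypes is a difference between this clone and the control cells, and effects of the gene and of the clone cannot be told apart. The study calls the replicates biological, and p-values speak for cultures of these lines.

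Eosinophils are granulocytes that arise from myeloid progenitors under GATA and C/EBP family transcription factors and expand in response to interleukin-5. Their granules hold major basic protein (PRG2) and its homolog (PRG3), eosinophil peroxidase (EPX), and the ribonucleases eosinophil-derived neurotoxin (RNASE2) and eosinophil cationic protein (RNASE3), while the cytoplasm holds galectin-10 (CLC), the protein of Charcot-Leyden crystals. IL5RA encodes the ligand-binding chain of the interleukin-5 receptor, and CCR3 the receptor for eotaxins. Several of these genes are not exclusive to eosinophils, since basophils express CLC, PRG2 and CCR3, and neutrophil and monocyte precursors express RNASE2. Sublines of HL60 are known that can be driven toward eosinophil-like cells, so some expression of these genes in the line is familiar.

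Values are normalized counts, which are read counts that the authors scaled between libraries and not by gene length. Estimated depth was 22681400 to 37019900 counts per library, so 3 counts, used as the limit of detection, corresponded to 2.47 to 3.84 normalized counts. Promyelocyte granule genes, the defining markers of HL60, were high in all 4 groups, with a sum over MPO, ELANE, AZU1, PRTN3 and CTSG of 542023 to 815492. Most of that sum was MPO, at 440811 to 661371. CTSG was lower in HK3-null cells and fell in ATRA. Its means in DMSO and ATRA were 11932 and 1906 in the Cas9 control and 3461 and 736 in HK3-null cells. HK3 RNA in libraries with the HK3-null label was not below the control level, at 302 to 346 against 65 to 105 normalized counts in DMSO and 1285 to 1975 against 1298 to 1850 in ATRA. The study based the knockout on sequencing of the genomic cut site and on mass spectrometry of the protein, neither of which measures RNA. Replicate 1 of the Cas9 control in DMSO stood apart in the number of genes detected (16750, with 15031 to 15801 elsewhere), and its values for the 8 genes are printed first in each set of 3.

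Of the granule protein genes, PRG2 had the highest level of the 8 in 3 of 4 groups. In DMSO, PRG2 stood at 7754, 8164 and 7250 normalized counts in the Cas9 control and at 162637, 165159 and 170475 in HK3-null cells. The lowest HK3-null library was thus far above the highest control library, and the ratio of means was 21.5. In ATRA, PRG2 stood at 329, 391 and 252 in the Cas9 control and at 51351, 51426 and 42445 in HK3-null cells, a ratio of 149, again without overlap. PRG2 alone took 0.534% to 0.576% of all counts in HK3-null cells in DMSO, and per kilobase of transcript it ranked between 6th and 7th of 18063 genes there, against 354th to 397th in the Cas9 control in DMSO. In ATRA it ranked 69th to 72nd in HK3-null cells and 5200th to 6372nd in the Cas9 control. In bulk RNA, fewer cells that express a gene and less RNA per cell cannot be told apart, here and in all values that follow. PRG2 (chr11:57386780-57390650, GRCh38) shares 752 of 1390 windows of 42 bases of its transcripts with ENSG00000254979, an annotated readthrough gene that reaches over the neighbouring SLC43A3, so counts of the 2 could be split. SLC43A3, a solute carrier gene, stood at 19148 ± 785 (SD, n = 3) in HK3-null cells and 21699 ± 1365 in the Cas9 control in DMSO.

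PRG3 lies next to PRG2 on chromosome 11 at a gap of 5630 bases and was far lower. It stood at 3, 4 and 4 normalized counts in the Cas9 control in DMSO and at 31, 31 and 21 in HK3-null cells in DMSO. The groups did not overlap, and the ratio was 7.55 with a 95% counting interval of 4.04 to 14.2. In ATRA, PRG3 was at 0 in all 3 Cas9 control libraries and at 9, 10 and 9 in HK3-null cells, at least 2.78-fold higher when the control is set to 3 counts per library.

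EPX encodes the haem peroxidase of the eosinophil granule, which uses bromide and thiocyanate as substrates. It was at 3, 3 and 3 normalized counts in the Cas9 control in DMSO and at 652, 694 and 509 in HK3-null cells. The ratio of 206 had a counting interval of 106 to 382, since the control libraries held 11 estimated counts in sum. In ATRA, the Cas9 control was at 0, 3 and 1, and HK3-null cells were at 391, 346 and 385. Every HK3-null library was above every control library in both treatments, and the control libraries were near the limit of detection. The related MPO, the myeloperoxidase gene of neutrophils and monocytes, shares 3 of 2678 windows of 42 bases with EPX and stood at 616910 to 656074 in the Cas9 control and 588140 to 661371 in HK3-null cells in DMSO. With MPO at this level, the Cas9 control libraries had 3 normalized counts at EPX.

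**Figure D1:**
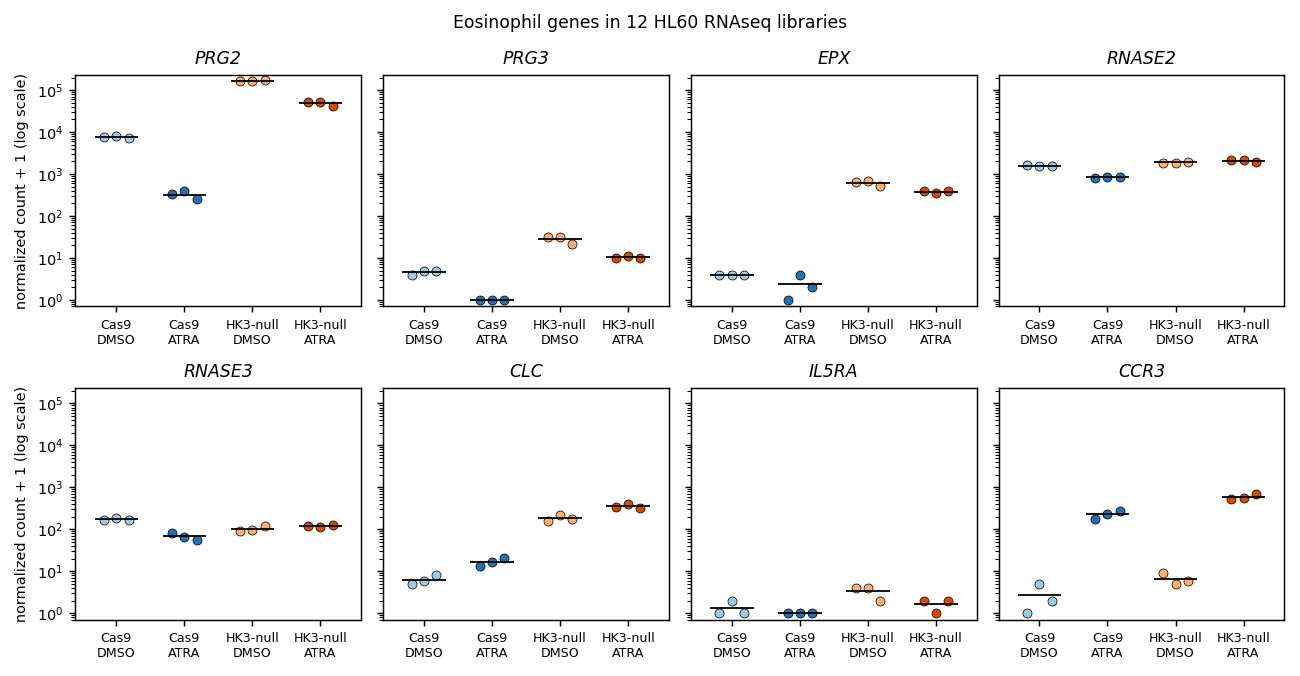
Normalized count plus 1 (log axis) of each eosinophil gene in 12 RNAseq libraries, 3 per group, with a line at the group mean. PRG2, EPX, PRG3 and CLC sit higher in HK3-null libraries under both treatments, CCR3 rises with ATRA in both genotypes, and IL5RA stays near the limit of detection.

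The ribonuclease genes RNASE2 and RNASE3 are close paralogs on chromosome 14 that encode secreted RNases with antiviral and antibacterial activity. Their promoters are shown because the genes differed in level but shared the direction of their ATRA responses. The 250 bases before the start site were taken from a set of RefSeq promoter sequences (GRCh38.p14). The set held an entry for 6 of the 8 genes (not PRG2 and EPX). Capitals mark matches on either strand to 3 kinds of motif. The GATA type is AGATAA, also with T as its first base or G as its last or both. The C/EBP type is spelled TTGCNNAA. The ETS type is spelled AGGAAG.
RNASE2, chr14:20955237-20955486, plus strand: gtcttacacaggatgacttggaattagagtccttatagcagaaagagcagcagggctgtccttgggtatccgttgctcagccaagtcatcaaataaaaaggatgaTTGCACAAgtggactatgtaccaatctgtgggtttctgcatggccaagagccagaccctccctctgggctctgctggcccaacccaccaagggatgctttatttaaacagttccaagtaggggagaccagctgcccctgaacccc
RNASE3, chr14:20891135-20891384, plus strand: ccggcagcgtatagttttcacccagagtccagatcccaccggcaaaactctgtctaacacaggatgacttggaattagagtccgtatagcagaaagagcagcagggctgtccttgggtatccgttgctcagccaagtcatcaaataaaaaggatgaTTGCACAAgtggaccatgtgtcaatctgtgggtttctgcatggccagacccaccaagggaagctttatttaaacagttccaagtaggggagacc
Over the best local alignment of 233 columns, 192 were identical (82.4%). Each holds 1 match of the C/EBP type, 145 bases before the start site in RNASE2 and 94 bases in RNASE3, and none of the other types. The same 250 bases held a C/EBP type match in 9.05% of 35116 promoters, a GATA type match in 22.3% and an ETS type match in 28.7%. A match is a string of letters and not a measured binding site.

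RNASE2 was high in every library. In DMSO it stood at 1601, 1583 and 1576 normalized counts in the Cas9 control and at 1836, 1870 and 1971 in HK3-null cells, a ratio of 1.19. In ATRA it stood at 817, 844 and 831 in the Cas9 control and 2117, 2169 and 1975 in HK3-null cells, a ratio of 2.51. The genotypes did not overlap in either treatment, and the gap was wider in ATRA.
RNASE3 was the only member lower in HK3-null cells in DMSO, at 92, 94 and 116 against 169, 181 and 164 normalized counts in the Cas9 control, a ratio of 0.588. In ATRA the order was turned, with 121, 111 and 129 in HK3-null cells against 82, 64 and 55 in the Cas9 control, a ratio of 1.80. Of the windows of 42 bases, RNASE2 shared 22.4% with other annotated genes, mostly the pseudogene RNASE2CP, and RNASE3 shared 8.80%, with RNASE2 and RNASE2CP, so a part of their reads could have been assigned to either.

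CLC, a galectin family member without secretion signal, was low in the Cas9 control and readily detected in HK3-null cells. In DMSO it stood at 4, 5 and 7 normalized counts in the Cas9 control and at 156, 213 and 177 in HK3-null cells, a ratio of 34.1 with a counting interval of 21.1 to 57.2. In ATRA it stood at 12, 16 and 20 in the Cas9 control and at 343, 410 and 317 in HK3-null cells, a ratio of 22.3. The genotypes did not overlap in either treatment. The promoters of CLC and PRG3 are set side by side because ATRA moved the genes in opposite directions.
CLC, chr19:39738030-39738279, minus strand: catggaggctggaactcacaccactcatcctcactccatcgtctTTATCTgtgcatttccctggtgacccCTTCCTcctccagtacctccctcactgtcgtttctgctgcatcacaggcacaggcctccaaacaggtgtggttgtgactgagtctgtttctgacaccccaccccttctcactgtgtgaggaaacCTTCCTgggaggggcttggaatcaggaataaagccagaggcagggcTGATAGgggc
PRG3, chr11:57381151-57381400, minus strand: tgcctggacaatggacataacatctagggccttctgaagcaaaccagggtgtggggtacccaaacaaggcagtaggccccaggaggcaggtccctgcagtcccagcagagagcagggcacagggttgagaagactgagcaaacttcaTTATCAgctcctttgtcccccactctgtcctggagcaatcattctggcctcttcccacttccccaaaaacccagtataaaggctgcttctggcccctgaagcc
With the same marking, CLC holds 2 GATA type matches, 206 and 10 bases before the start site, and 2 of the ETS type at 180 and 56 bases. PRG3 holds 1 of the GATA type, 103 bases before the start site, and none of the others.

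Of the receptor genes, IL5RA was at or near the limit of detection in all 12 libraries. It stood at 0, 1 and 0 normalized counts in the Cas9 control and 3, 3 and 1 in HK3-null cells in DMSO, and at 0, 0 and 0 and at 1, 0 and 1 in ATRA. The genotypes overlapped in both treatments, and a difference was not detectable at this depth. CCR3, a chemokine receptor on chromosome 3, stood at 0, 4 and 1 in the Cas9 control and 8, 4 and 5 in HK3-null cells in DMSO, which overlapped. In ATRA it stood at 173, 231 and 273 in the Cas9 control and at 515, 551 and 680 in HK3-null cells, without overlap and at a ratio of 2.58.

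Counted over the genes, HK3-null libraries were all above the Cas9 control libraries for 5 of 8 genes in DMSO and for 7 of 8 in ATRA. Over all 13256 genes tested, the shares with this separation were 31.8% in DMSO and 32.2% in ATRA. RNASE3 was separated in the other direction in DMSO, as were 31.9% of genes. Since genotype differences were in view when the genes were chosen, these counts describe the set and nothing is read from them.

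The order of levels was compared per kilobase of transcript. In HK3-null cells in DMSO it ran from PRG2 at 116066 ± 2796 (SD, n = 3) normalized counts per kb through RNASE2 at 2628 ± 97.5, CLC at 288 ± 45.7, EPX at 227 ± 35.7, RNASE3 at 137 ± 18.1, PRG3 at 31.8 ± 6.64 and CCR3 at 3.46 ± 1.27 to IL5RA at 0.407 ± 0.201. Of these neighbours, CLC and EPX overlapped between libraries, and the others did not. In the Cas9 control in DMSO, the order was PRG2 at 5397 ± 320, RNASE2 at 2204 ± 17.9, RNASE3 at 233 ± 11.9 and CLC at 8.45 ± 2.42 per kb, with the other 4 genes below CLC. In ATRA, RNASE2 led the Cas9 control at 1154 ± 18.8 per kb, above PRG2 at 226 ± 48.7, and CCR3 at 138 ± 30.7 overlapped with RNASE3 at 91.3 ± 18.7. In HK3-null cells in ATRA, PRG2 still led at 33828 ± 3608 per kb, followed by RNASE2 at 2899 ± 139, CLC at 565 ± 76.0, CCR3 at 355 ± 53.0 and RNASE3 at 164 ± 12.3, with no overlap between neighbours.

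The response to ATRA was tested with limma on log2(normalized count + 1) in 1 fit of all 12 libraries, with p-values adjusted by Benjamini-Hochberg over 13256 genes. A call required both an adjusted p below 0.05 and a change of 2-fold or more. Of the 8 genes, 7 passed the filter on low values and IL5RA did not. EPX, PRG3, CLC and CCR3 passed it only in some groups, and for genes near 0 the fitted fold depends on the added 1.

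In HK3-null cells, ATRA called 3 members, where 15.3% of all genes tested were called: PRG2 and PRG3 fell and CCR3 rose. PRG3 passed the filter on low values only through HK3-null groups and CCR3 only through ATRA groups. The count is therefore not read against that share. PRG2 fell by 1.78 on the log2 scale (SE 0.13, adjusted p = 1.7e-07 with limma), to 0.291 of its level in DMSO. PRG3 fell by 1.45 (SE 0.30, adjusted p = 0.00126), which missed the threshold when the deposited log2 values were used (adjusted p = 0.0791). CLC rose by 0.97 (SE 0.23, adjusted p = 0.00398), a fold just under 2; without the fold, 25.3% of all genes passed upward. CCR3 rose by 6.48 (SE 0.46, adjusted p = 1.57e-07), and its ratio of means was 103 with a counting interval of 61.9 to 162. EPX was lower in ATRA in all 3 libraries, at 0.605 of its level in DMSO, and did not pass (log2 difference -0.71, SE 0.37, adjusted p = 0.132). When only the HK3-null libraries were fitted, leaving out controls near 0, EPX passed (adjusted p = 0.00394). RNASE2 differed by 0.14 (SE 0.06, adjusted p = 0.0582), which is below the fold for a call. Its adjusted p with limma was under 0.05 in 5 alternatives. Among them were the replicate number as a block (0.025), the deposited log2 values (0.0414) and quantile normalization (0.0469). RNASE3 differed by 0.26 (SE 0.16, adjusted p = 0.205), and its libraries in ATRA and DMSO overlapped.

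In the Cas9 control, ATRA called 6 members, where 10.5% of all genes tested were called (7.26% higher and 3.19% lower). EPX and PRG3 were among the 6 and passed the filter on low values only through HK3-null groups. CCR3, also among the 6, passed it only through ATRA groups, so the count is not read against that share. PRG2 fell by 4.59 on the log2 scale (SE 0.13, adjusted p = 4.5e-11), to 0.0420 of its level in DMSO, and no control library in ATRA came near one in DMSO. RNASE3 fell by 1.36 (SE 0.16, adjusted p = 2.95e-05). RNASE2 fell by 0.93 (SE 0.06, adjusted p = 8.02e-08), which is below the fold for a call, and without the fold 22% of all genes passed downward. PRG3 fell from 3 or 4 normalized counts to 0 in every library (adjusted p = 7.31e-05), and with a pseudocount of 5 the difference was -0.79, which is under 2-fold, and 4 members were called. CLC rose by 1.42 (SE 0.23, adjusted p = 0.000373), and CCR3 by 6.69 (SE 0.46, adjusted p = 1.92e-07), with a ratio of means of 135 and a counting interval of 63.7 to 462. The call of EPX (adjusted p = 0.0474) rested on 11 against 4 estimated counts, whose ratio of 0.444 had a counting interval of 0.102 to 1.48, and it was lost in 11 of the 12 fits that left out 1 library, and the other, without replicate 2 of the Cas9 control in ATRA, kept it.

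**Figure D2:**
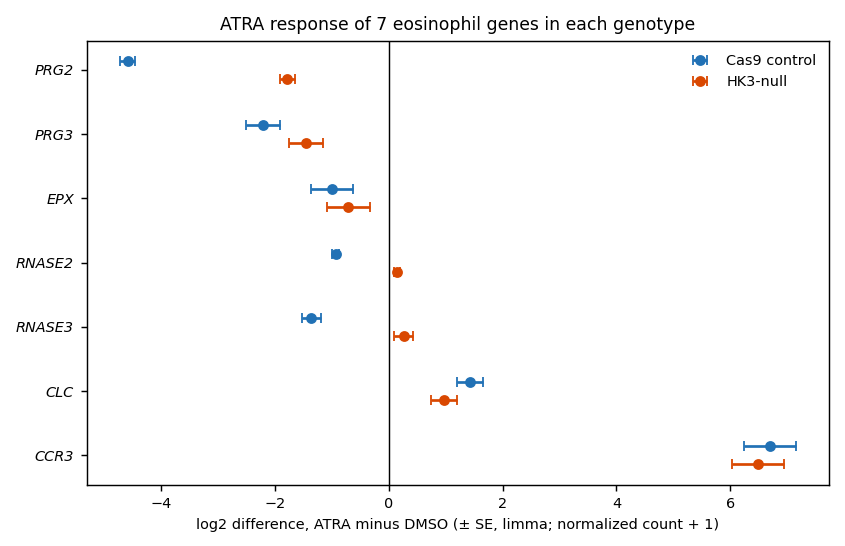
Fitted log2 difference between ATRA and DMSO (x axis, bars are ± SE from limma) for the 7 members tested, in the Cas9 control and in HK3-null cells. PRG2 lies at -4.59 and -1.78, RNASE2 and RNASE3 lie below 0 in the control and near 0 in HK3-null cells, and CCR3 lies above 6 in both.

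The ATRA responses of the genotypes were also set against each other. This difference of responses is the genotype difference in ATRA minus that in DMSO, the contrasts that were in view when the genes were chosen, so the members' values are a description without a test. Over all genes, 9.97% passed an adjusted p under 0.05 in it, and 24% passed with the replicate number as a block. For PRG2 the response in HK3-null cells was higher by 2.81 on the log2 scale (SE 0.18), so the fall was smaller than in the control. For RNASE2 it was higher by 1.07 (SE 0.08) and for RNASE3 by 1.62 (SE 0.23). The differences were -0.45 (SE 0.33) for CLC, -0.21 (SE 0.65) for CCR3, 0.29 (SE 0.53) for EPX and 0.76 (SE 0.42) for PRG3, the last pair having passed the filter only through HK3-null groups.

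The only ATACseq region that listed a member was one for CCR3, at chr3:46236181-46236741 (hg38, 561 bases). It overlaps no annotated exon, lies in an intron of 1 of 10 CCR3 transcripts of GENCODE v44, and ends 5719 bases before the start of the MANE transcript. The central 300 bases, chr3:46236312-46236611, are shown on the plus strand because no other analysed region lists a member, with the same marking.
CCR3 region: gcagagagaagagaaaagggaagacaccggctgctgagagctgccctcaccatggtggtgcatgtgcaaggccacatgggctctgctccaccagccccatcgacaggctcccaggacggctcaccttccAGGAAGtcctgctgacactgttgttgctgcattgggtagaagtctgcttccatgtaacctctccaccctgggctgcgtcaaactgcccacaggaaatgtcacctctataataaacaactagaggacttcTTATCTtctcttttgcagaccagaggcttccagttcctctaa
The shown part holds 1 GATA type match and 1 of the ETS type, and the whole region holds 3 and 1, with none of the C/EBP type.

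ATACseq signal, a fragment density after the authors brought all libraries to the same number of tags, stood in this region at 10.7 and 12.7 in the Cas9 control in DMSO, 24.9 and 12.2 in the Cas9 control in ATRA, 25.1 and 19.4 in HK3-null cells in DMSO, and 42.7 and 44.6 in HK3-null cells in ATRA. The HK3-null libraries in ATRA were the highest, and the Cas9 control libraries in ATRA were far apart. Replicate 2 of the Cas9 control in ATRA had a summed signal of 244488 over all regions, against 345345 to 390632 in the other 7 libraries, and its part in the spread was not tested. Every deposited region differed at least 1.65-fold between the genotypes in ATRA, so that contrast is a selection and was not tested. In DMSO the region was higher in HK3-null cells by 0.87 on the log2 scale (SE 0.38). Between the genotypes in DMSO, 86.6% of these selected regions were called in either direction, so this value is a description without a test. The ATRA libraries used in the selection also enter the responses to ATRA that follow. In HK3-null cells the response to ATRA did not pass (0.95, SE 0.38, adjusted p = 0.085 with limma over 6214 regions), where 16.8% of regions were called. In the Cas9 control it did not pass either (0.55, SE 0.38, adjusted p = 0.372), where 18.2% were. In HK3-null cells its adjusted p with limma was under 0.05 in 4 alternatives, among them quantile normalization (0.038). Of the 8286 regions analysed here, 0 lay within 100 kb of CLC, IL5RA or RNASE3, and 1 lay within 100 kb of PRG2 and PRG3, which listed RTN4RL2 and SLC43A1.

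**Figure D3:**
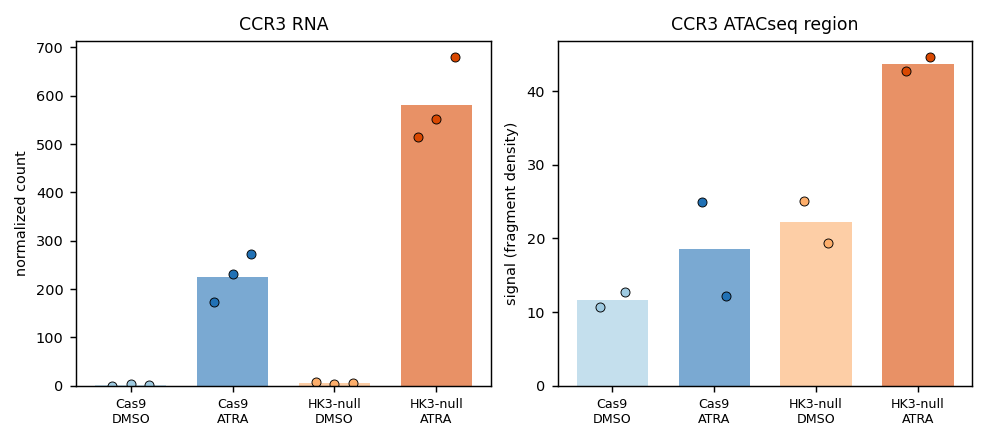
CCR3 RNA (left, normalized count) and signal of the CCR3 ATACseq region (right, fragment density) by group, with a bar at the mean and a point per library. RNA is near 0 in DMSO and highest in HK3-null cells in ATRA at 515 to 680, and the ATACseq signal is highest in the same group at 42.7 and 44.6.

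Transcription factors that act in eosinophil development were followed in a list of 13 genes, of which 12 were tested. In HK3-null cells ATRA called 4 of them higher and 3 lower, where 8.83% and 6.51% of all genes were called. The list's median log2 difference was 0.45 against 0.01 over all genes. Of the 3 lower, ZFPM1 fell from 12, 10 and 7 to 4, 3 and 5 normalized counts, near the limit of detection. It passed the filter on low values only through HK3-null cells in DMSO, so the 3 are not read against that share. ID1, among the 4 higher, passed it only through ATRA groups, so the 4 are not read against theirs either. GATA2, a factor of eosinophil, basophil and mast cell progenitors, fell in HK3-null cells from 1222, 1476 and 1559 to 97, 106 and 91 normalized counts (log2 difference -3.84, adjusted p = 4.19e-09), and in the Cas9 control from 441, 476 and 527 to 73, 50 and 41 (-3.15, adjusted p = 4.08e-08). In DMSO every HK3-null library was above every control library (log2 difference 1.55, SE 0.18). GATA1, which drives the eosinophil fate, stood between 0 and 6 in all 12 libraries and was not tested. In the Cas9 control it was at 1, 1 and 0 in DMSO and at 0, 0 and 1 in ATRA. In HK3-null cells it was at 6, 6 and 4 in DMSO and at 4, 4 and 5 in ATRA, near the limit of detection. CEBPE, needed for terminal granulocyte maturation, rose in HK3-null cells from 7629, 7076 and 7626 to 17359, 18390 and 18187 (1.27, adjusted p = 1.51e-08) and in the control by 1.37. The other calls with the largest changes in HK3-null cells were rises of ID1 (4.07, adjusted p = 1.68e-07), an inhibitor of helix-loop-helix factors, and CEBPB (3.86, adjusted p = 5.78e-10). IRF8, a monocyte factor, fell there from 270, 261 and 300 to 28, 17 and 48 (-3.24, adjusted p = 8.24e-07).

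Among 8 partners of the interleukin-5 receptor and their signalling genes, 6 were tested and ATRA called 3 higher and none lower in HK3-null cells, where 8.83% and 6.51% of all genes were called. The list's median log2 difference was 0.87 against 0.01 over all genes. CSF2RB, the common beta chain that pairs with the product of IL5RA, rose from 1170, 1260 and 1139 to 2973, 2768 and 2881 (log2 difference 1.27, adjusted p = 7.4e-08). In the control it rose from 1104, 1236 and 1147 to 1749, 1800 and 1464 (0.52, adjusted p = 0.000288). LYN, a Src family kinase of the receptor, rose by 1.62 in HK3-null cells (adjusted p = 3.55e-06). SDCBP, the adaptor syntenin that binds the IL5RA tail, rose by 1.01 (adjusted p = 1.69e-07), and in DMSO it stood at 3115, 3320 and 3180 in HK3-null cells against 727, 717 and 722 in the control. CSF2RA and IL3RA, the other alpha chains that use CSF2RB, were listed at 0 in all 12 libraries. Both are pseudoautosomal, and 13 of the 14 pseudoautosomal genes checked were listed at 0, among them the widely expressed SLC25A6 and CD99, so no level is read from them.

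Other genes of the eosinophil surface and of lipid mediator synthesis made a list of 15, of which 12 were tested. ATRA called 5 higher and 2 lower in HK3-null cells and 8 higher and none lower in the Cas9 control, with the shares of all genes given above. One of those 8 was SIGLEC8, at 0 against 1 normalized count in each control library, which is under the limit of detection. Another was CYSLTR2, at 1, 2 and 0 in DMSO and 13, 10 and 8 in ATRA in the control. CYSLTR2 passed the filter on low values only through the Cas9 control in ATRA, so the 8 are not read against that share. Between genotypes in DMSO, 8 were called higher and 1 lower in HK3-null cells, where 11.5% and 8.75% of all genes were (20.3% in either direction), and in ATRA 6 higher and 2 lower, where 12.4% and 10.6% were (23% in either direction). The list was put together with genotype differences of these data known, so these genotype counts, and those of the lists that follow, describe it and nothing is read from them. OLIG2, a transcription factor reported in eosinophils, was at 784, 832 and 815 normalized counts in HK3-null cells in DMSO and at 3, 0 and 0 in the Cas9 control, and it fell in ATRA to 86, 109 and 90 (log2 difference -3.09, adjusted p = 6.48e-05). SIGLEC8, an inhibitory lectin of eosinophils and mast cells, stood at 36, 34 and 39 in HK3-null cells and at 0 in all 3 control libraries in DMSO, and fell in HK3-null cells to 11, 7 and 12 (-1.79, adjusted p = 0.00035). ALOX5AP, the activating protein of leukotriene synthesis, rose by 3.72 in HK3-null cells (adjusted p = 2.78e-13) and by 3.03 in the control (adjusted p = 4.88e-13). CCR1, the chemokine receptor gene 2383 bases from CCR3, rose in HK3-null cells from 453, 485 and 520 to 6906, 6373 and 5212 (3.65, adjusted p = 1.11e-10) and in the control by 4.09 (adjusted p = 4.5e-11). PRG2, PRG3, GATA2, OLIG2 and SIGLEC8 thus fell in ATRA in HK3-null cells, while CLC, CCR3, CCR1 and CEBPE rose.

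The gene families of the members were also followed. Of 4 other peroxidases, MPO differed by -0.0041 on the log2 scale between genotypes in DMSO (SE 0.084, adjusted p = 0.973), and LPO, the lactoperoxidase gene, was at 7 to 12 in the control against 0 to 3 in HK3-null cells. Of 7 other RNase A family genes and their inhibitor, 2 were tested and ATRA called none in either genotype. RNH1, which binds and blocks RNases of this family, stood at 7606, 7097 and 6775 in HK3-null cells and 3765, 3532 and 3783 in the control in DMSO. Of 10 other galectins, 5 were tested, and LGALS1, LGALS3 and LGALS12 were called higher in HK3-null cells in DMSO, where 11.5% of all genes were, and LGALS1 and LGALS3 in ATRA, where 12.4% were. LGALS1 there stood at 1566, 1625 and 1466 against 376, 39 and 36, where the highest control value was that of replicate 1. LGALS3 stood at 295, 312 and 272 against 62, 1 and 2, with the same library highest. LGALS3 passed the filter on low values only through HK3-null groups, so the galectin counts are not read against those shares.

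Markers of other cell types also differed between the genotypes, and their part in the levels of the eosinophil genes was not tested. The sum over 7 neutrophil secondary granule genes was 319 to 350 normalized counts in HK3-null cells and 6 to 12 in the Cas9 control in DMSO, and 542 to 605 against 23 to 36 in ATRA. All 6 that were tested were called higher in HK3-null cells in both treatments, where 11.5% of all genes were called higher in DMSO and 12.4% in ATRA. Apart from CEACAM8, those tested passed the filter on low values only through HK3-null groups, so the count is not read against those shares. In DMSO, 7 of 7 were above the limit of detection in HK3-null cells against 2 in the control. The sum over 6 monocyte genes, nearly all of it LYZ, was 45863 to 47689 against 8047 to 8841 in DMSO and 26453 to 29594 against 1971 to 2064 in ATRA. The sum over 8 basophil and mast cell genes went the other way in DMSO, at 102 to 115 against 327 to 386. It was carried by KIT, at 82 to 96 in HK3-null cells against 190 to 278, and MS4A2, at 7 to 14 against 81 to 127, with CPA3 at 10 to 14 in the control. Of its defining genes, TPSAB1, TPSB2 and FCER1A had group means of at most 0.333 in DMSO. In ATRA that sum was 191 to 213 in HK3-null cells and 293 to 438 in the control. The sum over 9 erythroid and megakaryocyte genes was 301 to 340 against 121 to 175 in DMSO and 363 to 448 against 131 to 227 in ATRA. Most of it was EPOR, at 221 to 265 in HK3-null cells against 72 to 130 in DMSO, and EPOR and ITGA2B were both called higher there, while PF4 was at 0 in both groups. The sum over 4 lymphoid genes was 420 to 440 against 207 to 238 in DMSO and 1133 to 1231 against 285 to 316 in ATRA, nearly all of it NKG7.

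Genes whose levels ran most like each member were ranked by Pearson's r of log2(normalized count + 1) over 12 libraries, for the 6 members with a group mean of at least 50. The libraries form 4 groups, so r mainly reflects the order of the group means, and it is given as a description. PRG2 was most like LYZ, the lysozyme gene (r = 0.998), which stood at 8451 ± 392 (SD, n = 3) and 1700 ± 74.4 in the Cas9 control in DMSO and ATRA and at 46029 ± 937 and 27534 ± 1641 in HK3-null cells, and next like LOC728715 (0.991) and PGM3 (0.989). EPX was most like ZNF141 (0.997), CCAR2 (0.994) and NAPRT (0.993), and CLC most like ATF6B (0.997), JAML (0.995) and ADGRE4P (0.994). CCR3 was most like KIAA1524 (0.989), CCDC88B and TAF7 (both 0.987). RNASE2 was most like PNP (0.972), ANXA3 and CDA (both 0.966), and RNASE3 had the least close match, NTAN1 (0.918), followed by HAL (0.905) and MS4A3 (0.898). Among the members themselves, PRG2 and PRG3 were closest (0.989), EPX and CLC had r = 0.924, and CCR3 reached at most 0.451 with any other member. For EPX, 423 of 13255 other genes had r above 0.95, for CLC 467, for CCR3 182, for PRG2 106, for RNASE2 6 and for RNASE3 0.

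The nearest genes on the chromosome were compared with the members. MKS1, a cilium gene 267 bases from EPX, stood at 745 ± 102 (SD, n = 3) in HK3-null cells and 800 ± 97.2 in the Cas9 control in DMSO (log2 difference -0.10, adjusted p = 0.538), and in ATRA it was lower in HK3-null cells (-0.48, adjusted p = 0.00823), while EPX was higher there. METTL17, 33544 bases from RNASE2, was lower in HK3-null cells in DMSO by 0.46 (adjusted p = 3.88e-06). CCR2, 87405 bases from CCR3, rose in ATRA in both genotypes, by 2.67 in HK3-null cells (adjusted p = 8.97e-07) and by 3.61 in the control (adjusted p = 9.65e-08). The CCR3 gene and its neighbours on both sides thus rose in ATRA in both genotypes. LGALS14 and LEUTX beside CLC were at 0 in all libraries. Over the chromosomes that hold members (3, 11, 14, 17 and 19), the median log2 difference between genotypes lay between -0.01 and 0.11 in either treatment.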

How the data were processed

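RNA of HL60 cells was measured by RNAseq in 12 libraries (3 per group) and chromatin accessibility by ATACseq in 8 (2 per group), with groups taken from the sample labels. The authors mapped RNAseq reads to GRCh38 and deposited per gene a log2 value. Raising 2 to it gave a whole number within a relative distance of 3.47e-05, and 0 was written as the log2 of 0.001. DESeq2 and MACS2 are named in the submitters' processing notes, and the counter is not given in the sources used here. The methods describe RPKM, while the values showed no scaling by gene length. Counts before scaling were not used here, so count models were not run. Scaling factors (0.781 to 1.22) were estimated from the whole numbers skipped or doubled at regular steps. Entries with no gene name held at most 0.00926% of counts and were left out. For ATACseq, the authors deposited a signal, the fragment density of merged MACS2 peaks (GRCh38/hg38) after bringing libraries to equal tag numbers. Its depth is unknown.

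Values were turned back to normalized counts, and log2(normalized count + 1) was fitted with limma 3.58.1 in R 4.3.3 (trend) over 13256 genes with a mean deposited log2 above 3 in at least 1 group. The study's own analysis fitted all groups together, as here. ATACseq signal was fitted as log2(signal + 1) over 6214 of 8286 regions whose average signal exceeded 17.1 (25th percentile), and calls needed an adjusted p below 0.05 and a change of 1.5-fold or more. Fits were checked on simulated data. Counting intervals are exact (Clopper-Pearson, 95%) on estimated counts and, like the 3-count limit, cover counting error only. The members and all gene lists were chosen with earlier results of these data known. Named genes were the 8 members, up to 3 genes per list with the largest change among those called in HK3-null against Cas9 control in DMSO or in ATRA against DMSO in HK3-null cells, 4 set genes (GATA1, GATA2, CEBPE and CSF2RB), the 3 genes most like each member and the nearest genes. RNH1, EPOR, ITGA2B, KIT, MS4A2, CPA3, CSF2RA, IL3RA, SLC25A6, CD99, IRF8 and CYSLTR2 were named after their values were seen. RNAseq libraries with the same replicate number deviated together from their group means (r from 0.178 to 0.631 over 18 pairs, 10667 genes). The numbers were therefore taken to pair the samples. The main fit had no term for the replicate number, so its SEs and p-values do not use this pairing. A fit with the number as a block is given where it moves an adjusted p across 0.05 or changes a count of genes. ATACseq libraries with the same number did not deviate together (r from -0.209 to 0.0539). Alternatives were other pseudocounts (0.5 and 5), the deposited log2 values, no filter, quantile normalization, the block, fits of the compared groups alone, other thresholds and leaving out each library. Python 3.11.15, pandas 2.3.3 and Biopython 1.88 were used.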

Additional observations from a re-analysis of the deposited data

Results flagged for a closer look

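For 3 eosinophil genes, the difference of the ATRA responses between the genotypes was flagged by a threshold in the fit across all genes. That difference is drawn from the genotype contrasts on which the genes were chosen. The threshold is therefore no test of these genes, and the values are a description and no independent evidence. The log2 response of PRG2 was higher in HK3-null cells by 2.81 (SE 0.18), that of RNASE2 by 1.07 (SE 0.08) and that of RNASE3 by 1.62 (SE 0.23). In each case all 3 control libraries in ATRA lay below all 3 in DMSO. PRG2 was also below its DMSO libraries in 3 of 3 HK3-null libraries in ATRA, RNASE2 was above them in 3 of 3, and RNASE3 overlapped. With 3 RNAseq and 2 ATACseq libraries per group, no group was large enough to test for a single library far from the others.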

How the results depend on the processing

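The rises of CCR3 and CLC and the falls of PRG2 in both genotypes kept an adjusted p under 0.05 under every alternative tried, although the rise of CLC in HK3-null cells was under 2-fold with all libraries (0.97) and reached it without HK3-null ATRA replicate 3 (1.05) or HK3-null DMSO replicate 2 (1.09). The difference of responses kept to 2.64 to 2.95 for PRG2, 1.05 to 1.11 for RNASE2 and 1.49 to 1.77 for RNASE3. Differences of responses of genes near 0 changed sign for EPX with a pseudocount of 5 (-0.34) and without Cas9 control ATRA replicate 1 (-0.21), for PRG3 with a pseudocount of 5 (-0.38), and for CCR3 with a pseudocount of 5 (0.66), without Cas9 control DMSO replicate 1 (0.35) and without HK3-null DMSO replicate 1 (0.03). Leaving out 1 library gave a range of -0.21 to 0.79 for EPX and -0.81 to 0.35 for CCR3. With the deposited log2 values, where 0 enters as a large negative log2, that of PRG3 was 10.28.

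With the replicate block, 3182 genes passed in the difference of responses in place of 1321. It brought the adjusted p of RNASE2 in HK3-null cells under 0.05, at a log2 difference of 0.14 that is below the fold for a call. No call of a member changed with the block. With an unadjusted p under 0.05 and a fold of at least 1.5, the calls were 3963 for ATRA in HK3-null cells (2034 otherwise), 2929 for ATRA in the Cas9 control (1386), 4617 and 5225 for the genotypes in DMSO and ATRA (2689 and 3044), and 3010 for the difference of responses (1321). Leaving out 1 library gave 471 to 1166 ATACseq regions for ATRA in HK3-null cells (1046 otherwise; 471 and 530 without HK3-null DMSO replicate 1 or 2, and 690 without HK3-null ATRA replicate 1) and 495 to 1397 in the Cas9 control (1128 otherwise; 675 and 495 without Cas9 control DMSO replicate 1 or 2, and 541 without Cas9 control ATRA replicate 2). The number of members called was 3 to 4 in HK3-null cells and 5 to 6 in the Cas9 control when 1 library was left out, where CLC and EPX made the difference, and 4 in the Cas9 control with a pseudocount of 5. Depth limits IL5RA in all groups and EPX, PRG3 and CCR3 where they stood within a few counts of 0.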
